A study of Homo sapiens with 56 samples.

Results

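Bortezomib added to YM155 was examined in the mantle cell lymphoma sublines MINO-P and MINO-VR, by comparing the 2 libraries treated with both agents (treatment code BTZ_YM155) with the 2 libraries treated with YM155 alone. The libraries were chosen by their labelled cell line and treatment, and they are 4 of the 56 libraries of the series. The series measured poly(A)-selected RNA of 4 mantle cell lymphoma lines under single agents and pairs of agents, and its stated interest was inhibition of BIRC5 (survivin) and MCL-1 where these cells resist other drugs, with proteasome and BTK inhibitors as partners. The groups were MINO-P with YM155 (1 library), MINO-P with BTZ_YM155 (1), MINO-VR with YM155 (1) and MINO-VR with BTZ_YM155 (1). BTZ was read as bortezomib because the design text names a proteasome inhibitor; the labels used here spell out neither the subline suffixes nor a dose or exposure time. All 4 libraries carry a name of the MCL library series, and all received YM155, so no untreated MINO cell enters this comparison.

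Bortezomib blocks the chymotrypsin-like site of the proteasome, the complex that degrades ubiquitin-tagged proteins. Cells with a blocked proteasome are known to process the transcription factor NFE2L1, which raises transcription of proteasome subunit genes, and to activate HSF1, which drives heat shock chaperones, and NRF2 (NFE2L2), which drives antioxidant genes through antioxidant response elements. YM155 was developed as a suppressor of BIRC5, an inhibitor of apoptosis protein expressed mainly in dividing cells, and it enters cells through the transporter SLC35F2.

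Sequences of the promoters of members that rose are shown first, because the heat shock and antioxidant elements that these factors bind can be read in them. The stretches are 90 bases long, taken upstream of the transcription start from RefSeq windows (build GRCh38.p14; 250 bases before to 50 after each start), written 5′ to 3′ on the gene's strand. Capitals in the first 3 mark matches to the heat shock element core (GAANNTTC or TTCNNGAA), found in HSPA1B, an inducible HSP70; HSPA6, another inducible HSP70; and ZFAND2A, an arsenite-inducible protein that binds the proteasome.
HSPA1B, chr6:31827592-31827681, plus strand: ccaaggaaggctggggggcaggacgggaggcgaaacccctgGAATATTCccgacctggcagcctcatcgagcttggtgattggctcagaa
HSPA6, chr1:161524394-161524483, plus strand: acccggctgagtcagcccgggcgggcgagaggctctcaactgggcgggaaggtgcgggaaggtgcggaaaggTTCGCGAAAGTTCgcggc
ZFAND2A, chr7:1160319-1160408, minus strand: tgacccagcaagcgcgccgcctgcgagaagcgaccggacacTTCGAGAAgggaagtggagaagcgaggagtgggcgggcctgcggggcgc
Capitals in the other 5 mark matches to the antioxidant response element (TGACNNNGC on either strand), found in the proteasome genes PSMB3, PSMD3, PSMD12 and ADRM1 and in GCLM, a subunit of the enzyme that starts glutathione synthesis.
PSMB3, chr17:38752596-38752685, plus strand: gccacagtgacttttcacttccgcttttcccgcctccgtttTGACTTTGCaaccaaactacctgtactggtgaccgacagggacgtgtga
PSMD3, chr17:39980717-39980806, plus strand: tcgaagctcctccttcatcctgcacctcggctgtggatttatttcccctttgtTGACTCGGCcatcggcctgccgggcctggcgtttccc
PSMD12, chr17:67366694-67366783, minus strand: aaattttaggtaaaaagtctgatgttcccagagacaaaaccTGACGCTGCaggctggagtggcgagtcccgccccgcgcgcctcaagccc
ADRM1, chr20:62302718-62302807, plus strand: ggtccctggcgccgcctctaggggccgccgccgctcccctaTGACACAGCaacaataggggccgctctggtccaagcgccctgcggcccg
GCLM, chr1:93909431-93909520, minus strand: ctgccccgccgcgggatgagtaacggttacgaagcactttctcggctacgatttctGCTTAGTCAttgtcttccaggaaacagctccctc
The capitals of HSPA6 hold 2 overlapping matches, and those of each other stretch hold 1. Capitals mark only the motif named for that set: the HSPA6 and ZFAND2A stretches each also hold 1 match to the antioxidant element, left in lower case. A match is a description of the letters, not evidence of binding.

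Over all 27305 RefSeq windows, 13.6% held the antioxidant element and 13.7% held the heat shock core. Among genes tested here with a window, the antioxidant element was held by 15.4% (1539 of 9984). It was held by 23.9% of the genes called higher (73 of 305) and by 11.9% of those called lower (83 of 698). The heat shock core was held by 10.2% of tested genes (1014 of 9984), 10.5% of those called higher (32 of 305) and 9.17% of those called lower (64 of 698). Of the 13 genes of the HSP70 and HSP110 list, all with a window, 6 held the core. Of the 32 subunits of the constitutive 20S and 19S proteasome, 27 had a window, and 6 of those held the antioxidant element. The windows of PSMB5 and PSMD14 held none of the motifs. Among the called chaperone genes described below, HSPA1A, HSPA1B and HSPA6 held the heat shock core. The windows of HSPH1, BAG3, DNAJB1 and HSP90AA1 did not hold it. Of 13 NRF2 targets with a window, 4 held the antioxidant element, and the called genes SRXN1 and OSGIN1 did not. Of the 5 immunoproteasome and PA28 genes, none of which was called as deposited, 3 held the antioxidant element. The response element of the amino acid stress factor ATF4 (TGATGNAAN) was held by 3.67% of all windows, by 1.67% of tested genes (167 of 9984) and by 1.64% of those called higher (5 of 305). All motifs were searched on both strands, and the 2 spellings of the heat shock core can overlap.

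Depth recovered from the deposited values was 21.61 M reads in MINO-P YM155, 13.69 in MINO-P BTZ_YM155, 19.01 in MINO-VR YM155 and 19.34 in MINO-VR BTZ_YM155. Levels are given as CPM, the reads of a gene scaled to a fixed library total, and differences as BTZ_YM155 minus YM155 on the log2(CPM + 1) scale, which understates changes of weakly expressed genes. The share of counts from mitochondrially encoded genes was 5.73% in MINO-P YM155 and 12.84% in MINO-P BTZ_YM155, but 9.03% and 7.06% in MINO-VR, so it moved in opposite directions in the 2 lines. The lymphoid label held in all 4 libraries: MS4A1 (CD20) ranged from 330.1 to 1922 CPM and CCND1 (cyclin D1) from 180.8 to 2410 CPM. Of the 6 T-cell markers, CD3D, CD3G and CD2 were at 0 in all 4. CD3E was at 0.278 CPM in MINO-P YM155 and at 0 in the rest. CD8A ranged from 1.16 to 4.91 CPM and TRAC from 0.982 to 10.8 CPM. Of the 7 monocyte markers, FCGR3A and S100A8 had no values, and none of the others reached the expression filter of 1 CPM in 2 libraries. LYZ stood at 11.35 CPM in MINO-VR YM155 and CD14 at 2.263 CPM in MINO-P BTZ_YM155.

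Adding BTZ to YM155 raised 375 genes and lowered 894 of 12888 tested, counting a gene as called when the limma test with cell line as block gave a Benjamini-Hochberg adjusted p under 0.05. That is 9.85% of tested genes in either direction, 2.91% higher and 6.94% lower. The median change of all tested genes was -0.30, and -0.30 in MINO-P and -0.27 in MINO-VR taken alone. Median-ratio size factors moved that median to -0.02 and gave 795 higher and 612 lower, so the share of calls that were higher went from 29.6% to 56.5%. With TMM factors it was 53.4% (725 higher, 632 lower). A total of 983 genes, 371 higher and 612 lower, were called in the same direction as deposited, without mitochondrial genes and with size factors.

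Of all 12888 tested genes, 9490 (73.6%) differed in the same direction in the 2 lines. All 1269 called genes did so, which the call on the mean of both lines largely fixes, and in 1265 of them the YM155 and BTZ_YM155 libraries did not overlap, against 7356 of all 12888 tested genes. Across tested genes, which are not independent replicates, Pearson's r between the MINO-P and the MINO-VR difference was 0.596. There were 435 genes with a difference over 1 in both lines, 1387 under -1 in both and 83 over 1 in one line and under -1 in the other. The test for a difference between the lines called 0 genes with limma (0% of 12888; 359 at an unadjusted p under 0.05, and 0 in each of 5 alternatives).

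The contrast has 1 library per line and treatment, so its error is borrowed from the other treatments of the same lines in the same library series (16 samples, 7 residual degrees of freedom). The labels do not say whether libraries came from separate cultures, so p-values measure the spread between these libraries. Each of the 4 libraries decides the count: 51 genes were called without MINO-P YM155, 54 without MINO-P BTZ_YM155, 447 without MINO-VR YM155 and 269 without MINO-VR BTZ_YM155. In those fits 1 treatment keeps a single library, assumed to vary like the rest.

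**Figure D1:**
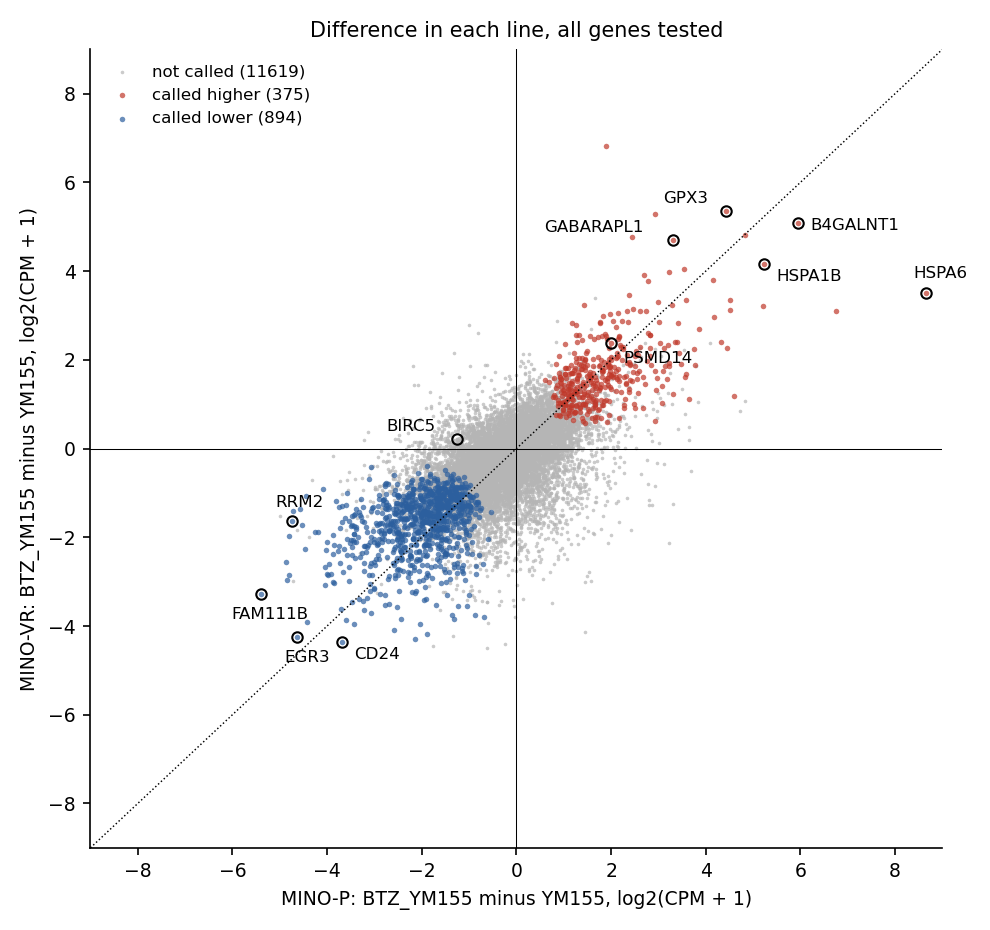
Log2(CPM + 1) difference between BTZ_YM155 and YM155 in MINO-P (x axis) and MINO-VR (y axis), 1 point per tested gene; red points were called higher (375), blue called lower (894), grey neither, and the dotted line marks equal differences. The called genes lie in the upper right and lower left corners of the plot, while BIRC5 is below 0 in MINO-P and above 0 in MINO-VR.

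The constitutive proteasome rose almost as a whole. Of the 14 subunits of the 20S core, the barrel that holds the proteolytic sites, 12 rose and 0 fell. Of the 18 subunits of the 19S cap, which recognises and unfolds ubiquitinated substrates, 17 rose and 0 fell. Their medians were 1.5 and 1.59, against -0.30 for all tested genes, and 2.91% of all tested genes were called higher. With size factors the counts were 13 and 18. Without 1 library at a time the calls fell to between 2 and 7 of 14 and between 0 and 4 of 18, lowest for both without MINO-P BTZ_YM155; all 32 subunits stayed above 0 in each of these fits and the medians lay between 1.25 and 1.77.

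PSMB5, the subunit that bortezomib binds, stood at 71.2 CPM with YM155 and 196 CPM with BTZ_YM155 in MINO-P, and at 47.0 and 193 CPM in MINO-VR. Both BTZ_YM155 libraries lay above both YM155 libraries, and the change was 1.73 ± 0.26 (SE; adjusted p = 0.0037). PSMB7, which carries the trypsin-like site, went from 60.6 to 263 CPM and from 89.2 to 373 CPM (2.08 ± 0.28, adjusted p = 0.0024). PSMB6, which carries the caspase-like site, went from 73.8 to 255 CPM and from 65.1 to 264 CPM (1.89 ± 0.25, adjusted p = 0.0024). All 3 catalytic subunits of the constitutive core therefore rose. Their groups did not overlap, but neither did those of 7356 of all 12888 tested genes. PSMB3, a structural subunit whose promoter stretch is shown above, went from 130 to 399 CPM and from 92.4 to 380 CPM, a change of 1.82. The weakest rises in the core were those of PSMA3 (149 to 173 CPM and 74.0 to 134 CPM) and PSMA4 (165 to 270 CPM and 110 to 229 CPM), which were not called (adjusted p = 0.30 and 0.11).

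In the cap, PSMD14, the deubiquitinase that removes ubiquitin from substrates, moved from 117 to 470 CPM in MINO-P and from 56.6 to 300 CPM in MINO-VR (2.19 ± 0.34, adjusted p = 0.0042). PSMC4, an ATPase of the base, moved from 162 to 458 CPM and from 99.6 to 462 CPM (1.85 ± 0.32). ADRM1, the ubiquitin receptor, moved from 172 to 670 CPM and from 130 to 418 CPM (1.82 ± 0.25). PSMD13, a subunit of the lid, moved from 143 to 373 CPM and from 89.3 to 369 CPM (1.71 ± 0.31). PSMD1 (200 to 361 CPM and 143 to 426 CPM) was the cap subunit that was not called, at an adjusted p of 0.11.

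Of the 5 genes of the interferon-inducible immunoproteasome and its PA28 activator, 0 were called in either direction by limma, and their median was -0.55. PSMB8 stood at 93.6 and 49.4 CPM in MINO-P and at 98.7 and 73.5 CPM in MINO-VR, while PSMB10 stood at 43.1 and 78.7 CPM and at 52.2 and 83.5 CPM. PSMB10 was above all 17 MINO libraries without BTZ of the same library series in both BTZ_YM155 libraries, and with size factors it was called higher. No test compared these 5 genes with the constitutive subunits.

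**Figure D2:**
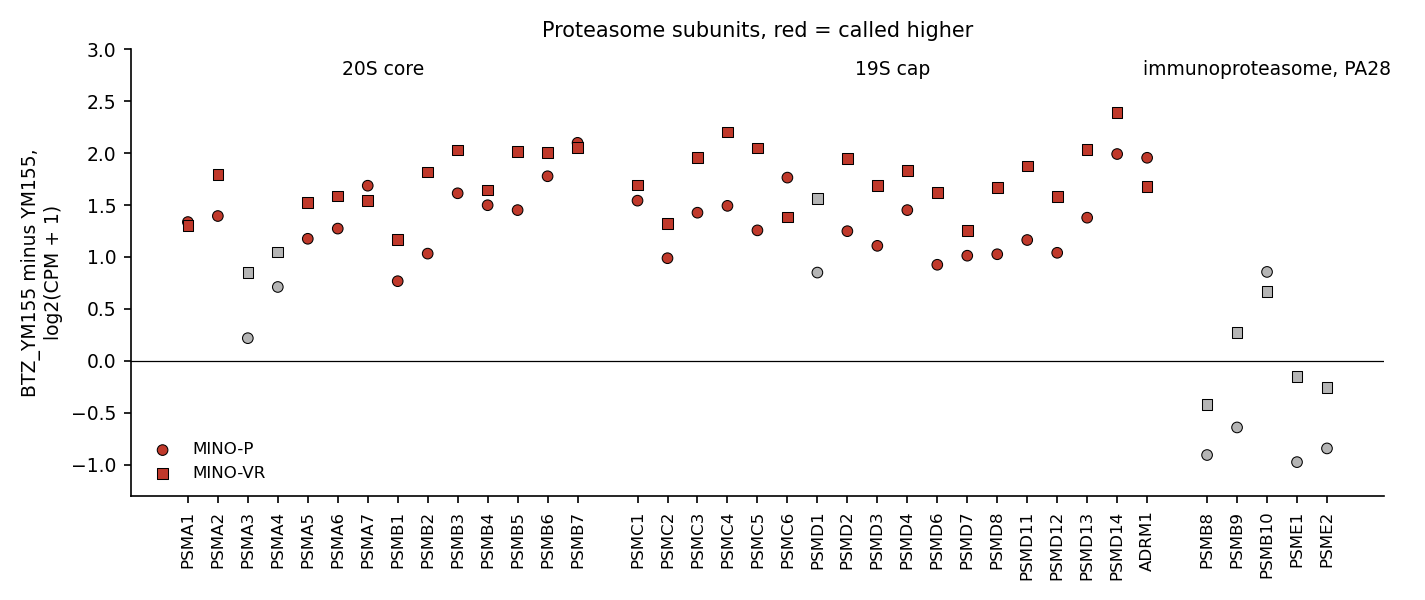
Log2(CPM + 1) difference between BTZ_YM155 and YM155 for each proteasome subunit in MINO-P (circles) and MINO-VR (squares); red symbols mark genes called higher in the joint fit. All 32 constitutive subunits lie above 0 in both lines, and 29 of them were called higher, against 0 of the 5 immunoproteasome and PA28 genes.

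Among 18 genes of proteasome assembly, ubiquitin supply and the VCP segregase, 7 rose and 1 fell (median 0.95), against 2.91% and 6.94% of all tested genes. POMP, the maturation chaperone of the 20S core, went from 77.3 to 246 CPM and from 76.0 to 234 CPM (1.63 ± 0.30). ZFAND2A went from 39.1 to 231 CPM and from 29.9 to 140 CPM (2.37 ± 0.39). SQSTM1 (p62), the autophagy receptor for ubiquitinated proteins, rose by 2.34, and UFD1 and NPLOC4, cofactors of VCP, rose by 1.51 and 1.27. The 20S assembly chaperones PSMG1, PSMG2, PSMG3 and PSMG4 were not called, with values between -0.69 and 0.04. The member that fell was DDI2, the protease that activates NFE2L1, from 153 to 47.1 CPM and from 124 to 51.0 CPM (-1.47 ± 0.28, adjusted p = 0.0095). Without 1 library at a time between 0 and 3 of the 18 were called higher, 0 without MINO-P YM155. NFE2L1 itself was not called: 335 and 281 CPM in MINO-P, 241 and 415 CPM in MINO-VR.

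Heat shock chaperones rose in part. Of 12 tested HSP70 and HSP110 genes 4 rose, and of 13 tested HSP40, BAG and small heat shock genes 5 rose. Of 12 HSP90, chaperonin and HSF1 genes 3 rose, and 0 of the 37 fell. Among all tested genes 2.91% were called higher and 6.94% lower. The medians of the 3 lists were 0.86, 1.26 and 0.80. HSPA1B went from 109 to 4153 CPM in MINO-P and from 287 to 5138 CPM in MINO-VR (4.70 ± 0.71, adjusted p = 0.0037). HSPA6 went from 1.42 to 976 CPM and from 39.8 to 465 CPM (6.09 ± 1.40, adjusted p = 0.019), a larger difference in MINO-P (8.66) than in MINO-VR (3.51), although the difference between lines was not called. HSPA1B and HSPA1A are near-identical copies and HSPA6 has a close pseudogene, so the split of reads between copies is uncertain. HSPA1A was under the floor of 3 reads (0.139 CPM) in MINO-P YM155 and at 107 CPM in MINO-P BTZ_YM155, and it went from 38.9 to 344 CPM in MINO-VR. Because of that split, the floor sets no lower bound on its fold change in MINO-P.

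BAG3, the HSP70 cochaperone that routes clients to autophagy, went from 36.4 to 848 CPM and from 58.7 to 607 CPM (3.93 ± 0.66, adjusted p = 0.0052). DNAJB1, an inducible HSP40, went from 74.6 to 1090 CPM and from 172 to 1120 CPM (3.27 ± 0.71, adjusted p = 0.015). HSPH1, the HSP110 nucleotide exchange factor, rose by 1.97. HSP90AA1, the inducible HSP90, went from 3200 to 12550 CPM and from 3226 to 10910 CPM (adjusted p = 0.042), and with size factors it was not called (adjusted p = 0.057). HSPB1 (257 to 1947 CPM and 290 to 1372 CPM) and the constitutive HSPA8 (1870 to 3272 CPM and 2287 to 4427 CPM) were not called, at adjusted p of 0.065 and 0.21. HSF1 was not called either (139 to 166 CPM and 151 to 226 CPM). Without 1 library at a time, between 0 and 3 of the 12 HSP70 and HSP110 genes and between 0 and 2 of the 13 HSP40 genes were called.

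Of 16 tested NRF2 targets 7 were called higher and 0 lower, against 2.91% and 6.94% of all tested genes. The median of the list was 1.37. With size factors 11 were higher. Without 1 library at a time it was between 0 and 3. HMOX1, heme oxygenase 1, went from 119 to 2126 CPM in MINO-P and from 52.4 to 742 CPM in MINO-VR (3.97 ± 0.81, adjusted p = 0.012). SRXN1, sulfiredoxin, went from 65.7 to 538 CPM and from 55.7 to 409 CPM (2.94 ± 0.52). GCLM went from 26.6 to 195 CPM and from 22.5 to 98.1 CPM (2.45 ± 0.51). OSGIN1, PIR, FTL (ferritin light chain) and PRDX1 were the other 4 called, with changes of 4.21, 2.81, 2.12 and 1.48. NQO1, TXNRD1 and SLC7A11, 3 commonly used NRF2 reporters, had values of 1.27, 1.24 and 1.24 and were not called. NFE2L2 stood at 358 and 326 CPM in MINO-P and at 174 and 180 CPM in MINO-VR.

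Other stress programmes were mostly not called. The counts stand beside 2.91% of all tested genes called higher and 6.94% called lower. Of 17 genes of the endoplasmic reticulum unfolded protein response, 0 were called (limma; median 0.21), among them HSPA5 (BiP) at 1.2 and XBP1 at 1.15. Of 19 amino acid stress genes 0 were higher and 1, VLDLR, was lower (median 0.15); ATF3 had a value of 2.30 and PPP1R15A of 2.23 with adjusted p of 0.18 and 0.098. There were 6 of 17 lysosome and autophagy genes that rose and 0 that fell (median 0.81); without 1 library at a time it was 1 in each fit. GABARAPL1, an ATG8 protein of autophagosomes, went from 16 to 167 CPM and from 6.47 to 193 CPM (4 ± 0.77), and CTSD, the protease cathepsin D, from 302 to 1529 CPM and from 487 to 2094 CPM (2.22 ± 0.48). Among 16 immediate early genes 4 rose (FOSL1, JUN, DUSP1 and JUND) and 2 fell (EGR2 and EGR3). JUN, a component of AP-1, went from 21.4 to 487 CPM and from 61.6 to 300 CPM. Without 1 library at a time between 0 and 2 immediate early genes rose and 0 fell, 0 rising without MINO-P BTZ_YM155.

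The largest rises shared by both lines were led by genes outside the proteasome, chaperone and NRF2 lists. B4GALNT1, the enzyme that makes the gangliosides GM2 and GD2 (hg38, chr12:57623409-57633240), went from 0.509 to 91.5 CPM in MINO-P and from 2.35 to 112 CPM in MINO-VR, a change of 5.51 ± 0.59 (adjusted p = 0.0011). GPX3, a secreted glutathione peroxidase, went from 1.11 to 44.1 CPM and from 1.16 to 86.6 CPM (4.88 ± 0.72). CLU, the extracellular chaperone clusterin, went from 0.231 to 34.0 CPM and from 1.68 to 74.8 CPM (4.83 ± 0.61). Each was close to absent with YM155 alone and plainly expressed with BTZ_YM155 in both lines. MAPRE3, a microtubule end-binding protein, rose by 3.79, APOBEC3A, a cytidine deaminase, by 3.60 and FAM219A by 3.27. GADD45A, a growth arrest and DNA damage gene, went from 23.3 to 292 CPM and from 11.6 to 127 CPM (3.47 ± 0.43, adjusted p = 0.0020), and it was the only 1 of 15 p53 targets to be called.

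**Figure D3:**
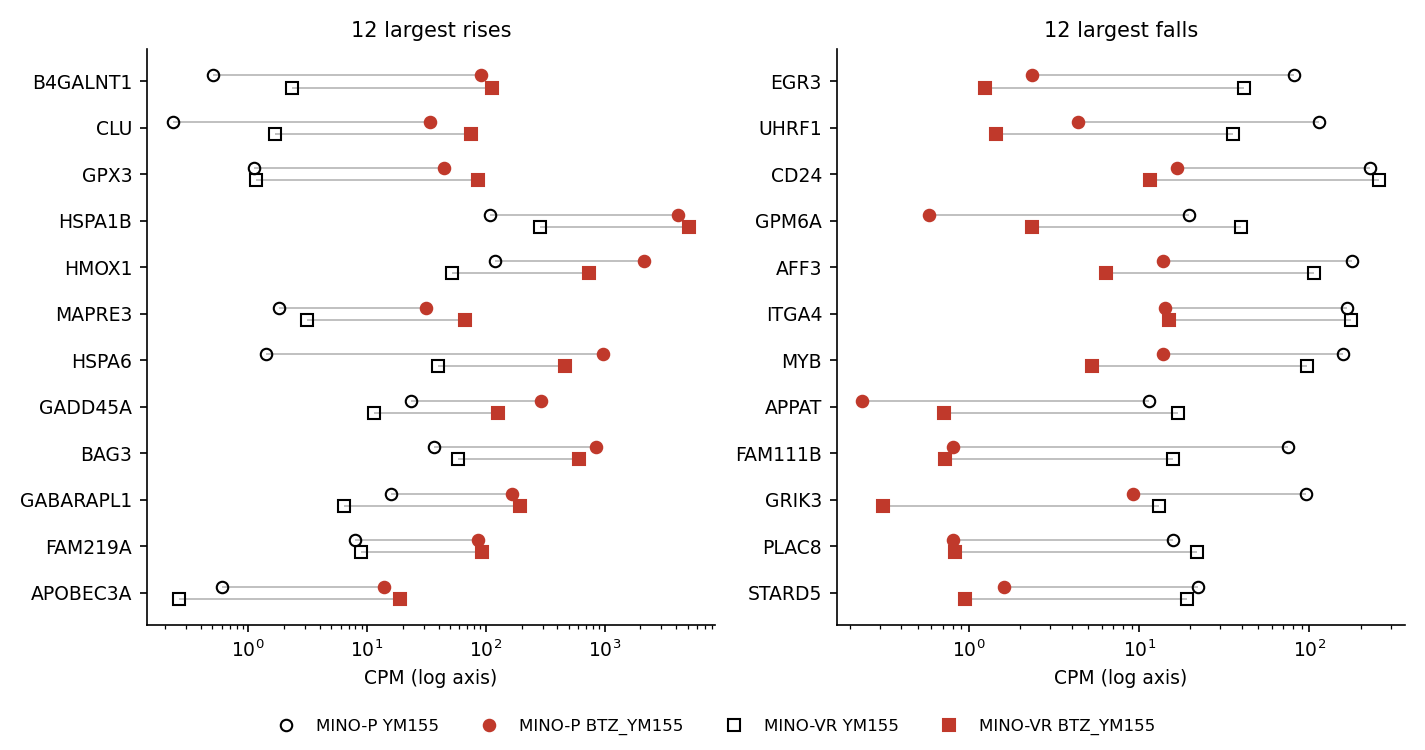
CPM on a log axis in the 4 libraries for the 12 largest rises (left) and 12 largest falls (right), ranked by the smaller of the differences in the 2 lines; circles are MINO-P, squares MINO-VR, open symbols YM155 and red symbols BTZ_YM155. In every gene shown both red symbols lie on the same side of both open symbols, which the choice of genes by these same differences largely fixes. Of all 12888 tested genes, 7356 showed no overlap between the 2 groups.

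Genes of B-cell and mantle cell identity fell. Of 22 tested members 10 fell and 0 rose (median -1.81), against 6.94% of all tested genes; 7 fell with size factors, and between 2 and 5 without 1 library at a time. CD24, a surface glycoprotein of B-lineage cells, went from 228 to 16.7 CPM in MINO-P and from 256 to 11.5 CPM in MINO-VR (-4.03 ± 0.44, adjusted p = 0.0011); it has pseudogenes that could share reads. MYB, a haematopoietic transcription factor, went from 158 to 13.8 CPM and from 96.8 to 5.27 CPM (-3.69 ± 0.48, adjusted p = 0.0023). PAX5, the factor that maintains B-cell identity, went from 188 to 16.1 CPM and from 216 to 40.4 CPM (-2.93 ± 0.66, adjusted p = 0.017). SPIB, an ETS factor of B cells, fell by 2.98, and SOX11, a diagnostic marker of mantle cell lymphoma, went from 158 to 67.2 CPM and from 168 to 41.3 CPM (-1.61, adjusted p = 0.038). CCND1 stood at 1482 and 181 CPM in MINO-P and at 2410 and 691 CPM in MINO-VR; it was not called, at an adjusted p of 0.053.

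B-cell receptor signalling genes fell in 7 of 18 (0 rose; median -1.21), 4 of 18 with size factors and 0 or 1 without any single one of the 4 libraries. CD79B, a signalling chain of the receptor, went from 247 to 41.4 CPM and from 341 to 101 CPM (-2.15 ± 0.48). PTPN6 (SHP-1), a phosphatase that restrains receptor signals, went from 316 to 42.8 CPM and from 323 to 65.3 CPM (-2.57 ± 0.52). BTK, the ibrutinib target, was not called (218 to 86.5 CPM and 280 to 173 CPM). In MHC class II, 3 of 12 fell, with changes of -3.44 for HLA-DMB, -2.43 for HLA-DOA and -2.43 for CIITA, the transactivator of the class. In the NF-kB list 2 of 23 fell, a share near the 6.94% of all tested genes: REL by 2.67 and IRF4 by 1.59. Without any single one of the 4 libraries the MHC class II count was 0 or 1, and the NF-kB count was 0 without either MINO-P library and 2 without either MINO-VR library. Of 20 interferon-stimulated genes limma called 0, with a median of -0.87 that turned to 0.17 without MINO-P YM155 and 0.09 without MINO-VR BTZ_YM155.

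DNA replication genes fell in 13 of 23 (0 rose; median -1.68), 10 with size factors. Leaving out MINO-VR YM155 gave 16, and leaving out MINO-P YM155, MINO-P BTZ_YM155 or MINO-VR BTZ_YM155 gave 1, 1 and 2. UHRF1, which maintains DNA methylation at replication forks, went from 114 to 4.37 CPM and from 35.7 to 1.45 CPM (-4.16 ± 0.55, adjusted p = 0.0023). RRM2, the ribonucleotide reductase subunit limited to S phase, went from 321 to 11.0 CPM in MINO-P and from 28.6 to 8.48 CPM in MINO-VR (-3.20 ± 0.58). MCM2 to MCM7, the helicase subunits, fell by values between 1.41 and 1.97 on the log2 scale, MCM7 only without size factors. The YM155 levels themselves differed between lines: RRM2 and TYMS (269 and 32.1 CPM) were higher in MINO-P YM155 than in MINO-VR YM155. The median replication gene changed by -2.33 in MINO-P and by -1.18 in MINO-VR, with no gene called for that difference. In the mitosis list 2 of 24 fell (CENPF and BUB1), a share near the 6.94% of all tested genes, with medians of -1.84 in MINO-P and -0.32 in MINO-VR. Without MINO-VR YM155 the mitosis count was 9, and without any other single library of the contrast it was 0. FAM111B, a replication-associated protease, went from 75.3 to 0.803 CPM and from 15.8 to 0.724 CPM (-4.35 ± 0.60).

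Lipid synthesis genes fell in 6 of 17 (0 rose; median -1.18), 4 with size factors and between 0 and 7 without 1 library, 0 when either MINO-P library was left out. Across all tested genes 6.94% were called lower and the median change was -0.30. SCD, which desaturates stearate, went from 462 to 62.6 CPM and from 438 to 121 CPM (-2.35 ± 0.37, adjusted p = 0.0043). ACACA, acetyl-CoA carboxylase, went from 98.8 to 12 CPM and from 92.4 to 27.4 CPM (-2.33 ± 0.35), and FASN, fatty acid synthase, fell by 2.20. MYC, a growth-driving transcription factor, went from 239 to 40.0 CPM in MINO-P and from 259 to 43.8 CPM in MINO-VR (-2.54 ± 0.65, adjusted p = 0.027). CCND2 (cyclin D2) fell by 2.20. The falls ranked largest also held EGR3, an immediate early factor (81.7 to 2.34 CPM and 41.5 to 1.24 CPM), AFF3 (-3.73), GPM6A (-3.66), the integrin chain ITGA4 (-3.47), PLAC8 (-3.43), GRIK3 (-3.34), STARD5 (-3.26) and the long noncoding RNA APPAT (-3.36). Over the 15 MINO libraries of the MCL library series with neither BTZ nor single-agent YM155, EGR3 had medians below its BTZ_YM155 levels. These were 0.66 CPM in MINO-P and 0.67 CPM in MINO-VR, with highest levels of 59.2 and 22.9 CPM.

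BIRC5, MCL1, SLC35F2 and most apoptosis genes did not pass the test, whereas PSMB5, the subunit that bortezomib binds, did (values above). BIRC5 stood at 74.7 CPM with YM155 and 30.9 CPM with BTZ_YM155 in MINO-P, and at 10.6 and 12.5 CPM in MINO-VR (-0.52 ± 0.63, adjusted p = 0.63; 0.74 without MINO-P YM155). The lines thus differed in direction, and in level with YM155 alone, and the groups overlapped. MCL1 stood at 297 and 204 CPM in MINO-P and at 303 and 277 CPM in MINO-VR (adjusted p = 0.48), and SLC35F2 at 69.8 and 39.9 CPM and at 51.2 and 39.4 CPM (adjusted p = 0.32). BCL2, an anti-apoptotic protein, went from 648 to 212 CPM and from 687 to 284 CPM (-1.44 ± 0.35, adjusted p = 0.024). Of the pro-apoptotic genes BAD rose (12.4 to 39.5 CPM and 14.7 to 32.0 CPM) and BMF fell (131 to 42.5 CPM and 396 to 71.7 CPM), while PMAIP1 (NOXA) was not called (442 and 450 CPM, 169 and 205 CPM). Of the 9 genes listed around the inhibitors of apoptosis, CFLAR and DIABLO among them, limma called 0 as deposited and 1 with size factors. Since these are bulk RNA samples, less RNA per cell and fewer cells of a state cannot be told apart.

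**Figure D4:**
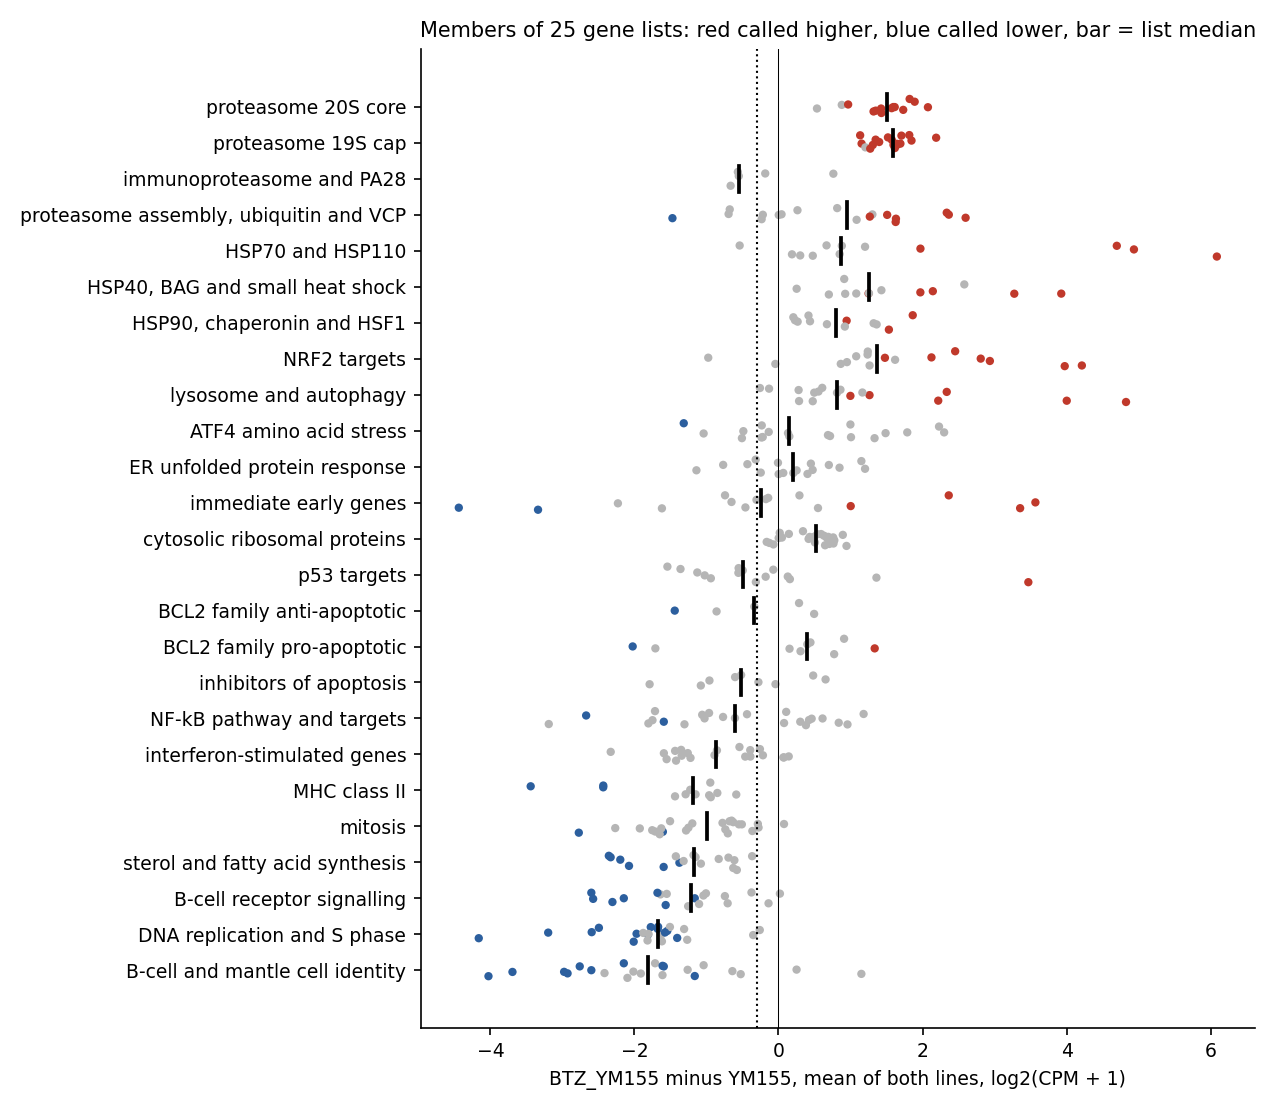
Change between BTZ_YM155 and YM155 (mean of both lines, log2(CPM + 1)) of each tested member of 25 gene lists; red points were called higher, blue lower, grey neither, black bars are list medians and the dotted line is the median of all tested genes. The constitutive proteasome lists have the highest medians, 1.5 and 1.59, and B-cell and mantle cell identity the lowest, -1.81.

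Set against the same lines under other agents, the rises differed in how far they stood out. The MCL library series holds 17 MINO libraries without BTZ (YM155, S63845, the BTK inhibitor code IBR and pairs with IBR). Of the genes called higher, 62.9% (236 of 375) were higher in both BTZ_YM155 libraries than in all 17, against 5.49% of tested genes; of those called lower, 29.5% (264 of 894) lay below all 17, against 4.23%. These 17 include the YM155 libraries of the contrast, and the calls used the same BTZ_YM155 libraries. Shares above those of all tested genes are therefore partly fixed by the selection. By list the constitutive proteasome had 13 of 14 core and 18 of 18 cap subunits above all 17. B-cell and mantle cell identity had 7 of 22 below. Of other lists with falls, DNA replication had 3 of 23 below all 17, lipid synthesis 2 of 17 and B-cell receptor signalling 1 of 18. Mitosis had 1 of 24, the NF-kB list 1 of 23 and MHC class II 0 of 12. The HSP70 and HSP110 list had 3 of 12 above, the HSP40 list 1 of 13 and the NRF2 list 1 of 16.

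HSPA1B and HMOX1 differed between the lines in this respect. In MINO-P HSPA1B was at 109 CPM with YM155, 200 and 207 CPM with S63845, 622 to 2402 CPM with IBR, 1152 CPM with IBR_YM155, 4683 and 5030 CPM with IBR_CLF and 4153 CPM with BTZ_YM155. In MINO-VR HSPA1B was at 5138 CPM with BTZ_YM155, above the 1621 CPM that was its highest in the libraries without BTZ. HMOX1 showed the opposite order: in MINO-P its 2126 CPM with BTZ_YM155 lay above the highest library without BTZ (1357 CPM), and in MINO-VR its 742 CPM lay below the highest (1353 CPM, with IBR_CLF). Of the MINO-P libraries of this series the YM155 library was the lowest for both genes; in MINO-VR it was the lowest for HMOX1, while HSPA1B was lower with S63845 (198 CPM) than with YM155 (287 CPM). PSMD14 by contrast lay between 55.0 and 95.8 CPM in the 15 MINO libraries with neither BTZ nor single-agent YM155, under its 300 and 470 CPM with BTZ_YM155. CD24 lay between 53.4 and 253 CPM in those 15 libraries, above its 11.5 and 16.7 CPM. UHRF1 was already between 5.08 and 12.6 CPM in MINO-P with IBR, IBR_CLF or IBR_S63845, beside 4.37 CPM with BTZ_YM155. It was between 6.84 and 9.07 CPM in MINO-VR with IBR or IBR_CLF, beside 1.45 CPM. The MINO-P library with IBR_YM155 was higher, at 28.5 CPM. With S63845 alone UHRF1 stood at 78.2 and 234.9 CPM in MINO-P and at 122.5 CPM in MINO-VR.

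**Figure D5:**
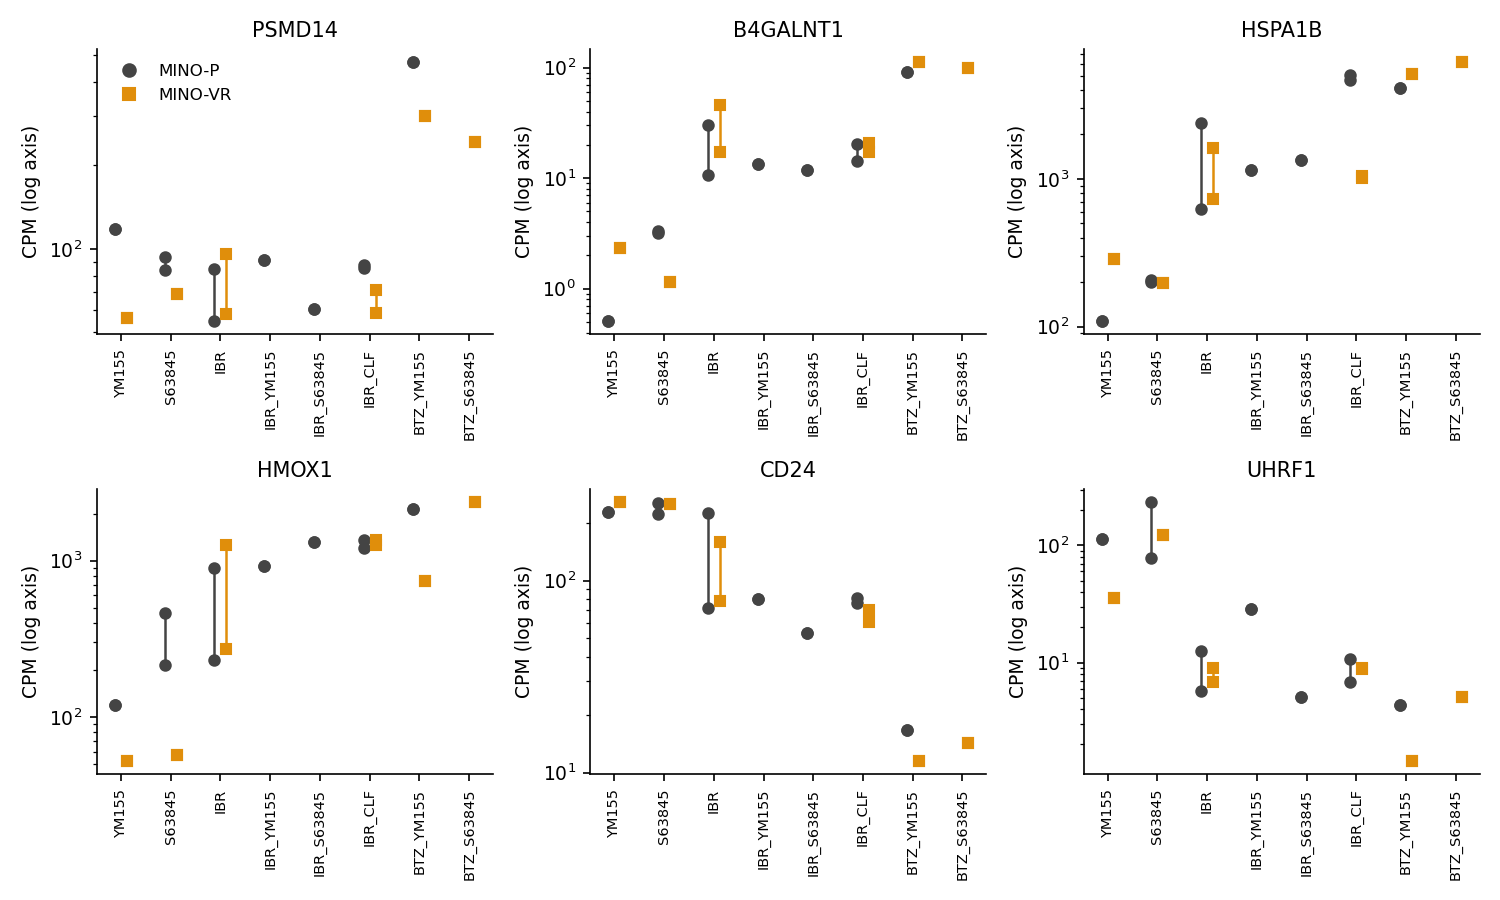
CPM on log axes of 6 genes in the MINO libraries of the MCL library series by treatment code, circles MINO-P and squares MINO-VR, with a line joining the lowest and highest library where a treatment has several. PSMD14 and B4GALNT1 are highest and CD24 lowest in the BTZ libraries, whereas HSPA1B and HMOX1 are also high in libraries with IBR.

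BTZ alone was compared with untreated cells (CON) of the same lines in the other library series (named HK; 8 libraries, none shared with the contrast). It raised 1301 (10.1%) and lowered 2290 (17.9%) of 12819 tested genes. Of the genes raised by BTZ on top of YM155, 69.3% (260) were also raised by BTZ alone, and these are 20.0% of the genes raised by BTZ alone; of the genes lowered, 52.8% (472) were also lowered, 20.6% of those lowered by BTZ alone. Another 4 genes were called in opposite directions. The proteasome counts were 12 of 14 and 17 of 18 in both comparisons. The immunoproteasome and PA28 list differed in its counts: 4 of 5 fell with BTZ alone and 0 of 5 with BTZ added to YM155. PSMB5 changed by 0.64 with BTZ alone and by 1.73 with BTZ added to YM155, HSPA1B by 7.21 and 4.70, and MYC by -0.32 (adjusted p = 0.57) and -2.54.

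The direct test of BTZ added to YM155 against BTZ alone called 0 of 13560 genes with limma (0%; 1681 at an unadjusted p under 0.05, smallest adjusted p 0.057). It called 11 with a pseudocount of 4, 17 with no expression filter and 7 with array weights. For MYC the estimate was -2.22, for GADD45A 2.13, for CLU 2.54 and for HSPA1B -2.51, none of them called. The median estimate was 0.85 over 24 ribosomal protein genes and 1.46 over 20 interferon-stimulated genes, against -0.13 for all tested genes. The 2 comparisons lie in different library series, so series and the presence of YM155 cannot be told apart for any gene whose response to BTZ itself differs between series.

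BTZ added to S63845, an MCL-1 inhibitor, was measured in 1 MINO-VR library, and S63845 alone in 2 MINO-P libraries and 1 MINO-VR library. The fit compared the single library with all 3, with cell line as a term, and took its spread from the other treatments, so these calls assume that the single library varies like the rest. In this fit 329 of 12769 genes were called (2.58%), 129 higher and 200 lower. Of the constitutive proteasome, 5 of 14 core and 11 of 18 cap subunits were called higher, with medians of 1.27 and 1.59. Within MINO-VR, B4GALNT1 stood at 1.15 CPM with S63845 and 98.3 CPM with BTZ_S63845, and CD24 at 250.6 and 14.2 CPM. The fitted changes were 4.72 for B4GALNT1, 3.39 for GADD45A, -3.89 for CD24 and -4.09 for UHRF1, beside 5.51, 3.47, -4.03 and -4.16 with YM155. BIRC5 stood at 63.2 and 4.56 CPM within MINO-VR and fell by 3.25 (adjusted p = 0.043). APPAT, which fell by 3.36 with YM155, had values of -0.23 with S63845 and 0.31 with BTZ alone and was called in neither. Its level with YM155 alone was 11.4 CPM in MINO-P and 16.9 CPM in MINO-VR. In the 9 other MINO-P libraries without BTZ of the MCL library series its median was 1.47 CPM and its highest level 9.65 CPM. The 6 such MINO-VR libraries had a median of 0.812 CPM and a highest level of 6.18 CPM. Both pairs share the spread estimate of the same 16 samples, and the difference between them was not tested.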

How the data were processed

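Poly(A)-selected RNA libraries of mantle cell lymphoma cell lines were sequenced, per the labels' protocols. The authors deposited 1 table of 21596 genes in 56 libraries on a log2 scale; after back-transformation every library sums to between 999984 and 1000008.6, so the deposited unit is log2(CPM + 1). The submitters' processing notes name Partek and the build hg38; aligner, counter and annotation are not given in the sources used here. Depth was recovered from the steps between low values, but only part of the values came out as whole reads, so no count test was run.

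Library pairs whose names differ only by a suffix were averaged. A gene was tested if 2 or more of the 4 libraries reached 1 CPM. The fit used limma 3.58.1 (trend, empirical Bayes; R 4.3.3) with treatment and cell line as terms, and p-values were adjusted by Benjamini-Hochberg with a threshold of 0.05. TMM factors were computed from their published formula on CPM. The fit was tested on simulated data made from the same 12888 genes: it recovered 71 of 100 genes changed by 2 on the log2 scale and 4 of 100 changed by 1, with 3 false calls. Named genes were the 12 largest rises and falls by the smaller difference of the 2 lines (mean of at least 5 CPM, called under 3 scalings, at least 0.5 in each line), up to 4 called members of each of 32 lists, and 4 fixed genes; other list members are named for their role. The members and lists were chosen with earlier results of these data known. The 90-base stretches were chosen after the values were seen. Scaling, pseudocount, filter, sample set, block, weights and leaving out each sample were varied. Counting floors (3 reads) cover counting error only. Results for some list members are not reported here.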

Additional observations from a re-analysis of the deposited data

How the results depend on the processing

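The count of 1269 genes called was between 51 and 1646 when each of the 16 samples was left out in turn; the 4 lowest counts came from the 4 libraries of the contrast. It was 2898 with those 4 libraries fitted alone, 2166 with library pairs kept separate, 2346 with the MINO libraries of both series, 816 with no cell line block and 70 with all 56 libraries and a series term; scaling, pseudocount, filter, array weights and robust settings gave between 869 and 1871, of which array weights (1871) lay closest to 1.5 times the count. Array weights gave 2344 genes for BTZ against CON (3591 as fitted) and 1332 for BTZ_S63845 against S63845 (329 as fitted), which fell to 196 with no filter. BTZ added to YM155 against BTZ alone called 11 genes with a pseudocount of 4, 17 with no filter and 7 with array weights (0 as fitted). The cause of these differences was not tested. BIRC5 turned from -0.52 to 0.74 without MINO-P YM155, and leaving out each of the 16 samples gave values between -1.77 and 0.74. Of the other named genes none changed direction under the 30 alternatives, but their calls were less stable. With all 56 libraries and a series term 74 named genes lost their call. Most named genes also lost it when either MINO-P library of the contrast was left out. No paired analysis was possible because the labels carry no shared replicate numbers; pairing by cell line is already in the fit as its block, and in the fit of the 4 libraries alone it leaves 1 residual degree of freedom. Changes of 1 on the log2 scale are mostly beyond what 1 library per line and treatment can detect.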

Other observations

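Genes of a joint glycolysis and hypoxia list moved in both directions. Of 18 tested, 2 fell (HK2 and LDHA called lower) and 2 rose (NDRG1 and ALDOA). Of all tested genes 6.94% were called lower and 2.91% higher, so counts this small say little about the list. HK2, hexokinase 2, stood at 198 CPM with YM155 and 35.1 CPM with BTZ_YM155 in MINO-P and at 113 and 22.5 CPM in MINO-VR (-2.37 ± 0.48). LDHA, lactate dehydrogenase A, stood at 1024 and 195 CPM and at 525 and 202 CPM (-1.88 ± 0.36). ALDOA, the aldolase of the same pathway, rose from 1085 to 2088 CPM and from 805 to 2403 CPM (1.26 ± 0.33). Of the 18 members, 6 were higher in both BTZ_YM155 libraries than in all 17 MINO libraries without BTZ, against 5.49% of tested genes.

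Ribosomal protein genes leaned upward without passing the test: 21 of 24 had values above 0 as deposited and 24 of 24 with size factors, the median was 0.52, and limma called 0. RPS9 had the largest value, 0.94 (652 to 1226 CPM and 606 to 1195 CPM). The mitochondrial ribosomal RNA MT-RNR2 stood at 15340 and 74980 CPM in MINO-P and at 18150 and 22430 CPM in MINO-VR, the source of much of the mitochondrial share in MINO-P BTZ_YM155; it was not called. H2BC12, a histone gene, rose from 21.9 to 63.5 CPM and from 44.8 to 95.9 CPM, with a value of -0.78 for BTZ alone (not called).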
